A study of Drosophila melanogaster with 12 samples.

Results

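Focal *Pcl* sites are short stretches of the genome where log2(*Dam::Pcl/Dam*) was high in every sample while the surrounding 10 kb stayed low. They were chosen on the measured values. A 1 kb bin was taken where its mean log2(*Dam::Pcl/Dam*), weighted by fragment length, was 2.5 or more in each of the 6 *Dam::Pcl* samples and the 10 kb bin around it had a mean over the samples under 1.5. Touching bins were merged. Of 133872 bins with a value on chromosome arms 2L, 2R, 3L, 3R, 4 and X, 3019 reached that level in each sample. Of these, 271 lay in a low 10 kb bin and formed 217 sites, and the other 2748 lay in broad 10 kb bins, those with a mean of 1.5 or more. Because the levels chose the sites, levels are given as a description with no test.

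*Pcl* (*Polycomb-like*) encodes the accessory subunit that marks PRC2.1, one form of the Polycomb repressive complex that methylates histone H3 at lysine 27 and holds developmental genes silent. In flies, Polycomb proteins are brought to DNA at Polycomb response elements, short sequences with clustered motifs of factors such as Pho and the GAGA factor, from which the methylated chromatin can spread over long domains around genes such as the Hox genes. A response element can therefore carry a sharp peak of binding inside, at the edge of or apart from such a domain.

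In targeted DamID (TaDa), the bacterial methylase Dam fused to *Pcl* marks GATC sequences near the places *Pcl* visits, and Dam alone gives the background. The 6 samples had the genotype *Gr5a;tubulinGAL80ts>UAS-LT3-Dam::Pcl*, in which *Gr5a-GAL4* drives the fusion in sweet taste neurons and a heat-sensitive GAL80 delays it until the flies are warmed. Flies of both sexes ate a control diet (5% sucrose, 3 replicates) or a sugar diet (30% sucrose, 3 replicates), and their titles give 4 days. The paper describes 3 days of diet and then induction between days 3 and 4, which goes with the titles. The treatment protocol in the labels instead describes about a day of diet before and a day during induction, so the sources differ on the duration. Each replicate was 300 whole heads, and the labels give rearing at 20°C and induction at 29°C, while the methods give a slightly lower induction temperature. Dam-only flies on both diets, which carry *UAS-LT3-Dam* in place of the fusion, entered only as the authors' denominators. The fusion is an added copy of *Pcl*. DNA was extracted from whole heads, and the method amplifies the part methylated by Dam, which *Gr5a-GAL4* drives. A larger share of these cells bound and more binding per cell cannot be told apart.

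The sequences below show what lies under the strongest sites that could be printed. Each is 300 bases of the RefSeq Release 6 genome, forward strand, around the middle of the GATC fragment with the highest mean in the site. Sites on 1 chromosome arm, among them the high sites at *NaPi-T* and *Eglp2*, were not considered for printing. The other sites were taken in order of their level until 6 windows were found with only unique 75-base words and no annotated untranslated region, followed by the sites with the largest rise and the largest fall on the sugar diet. The windows are chr3L:20503-20802 (upstream of *mthl8*), chr3R:18269934-18270233 (*CG18599*), chr3L:5126330-5126629 (upstream of *CG4597*), chr2L:6851206-6851505 (upstream of *Rca1*), chr3R:26880475-26880774 (*ro*), chr3R:16982905-16983204 (upstream of *AhcyL2*), chrX:1697366-1697665 (upstream of *a6*) and chr3R:32069587-32069886 (upstream of *Map205*). The windows at *CG18599* and *AhcyL2* begin just before the site's first bin, because the highest fragment does. Capitals mark the Pho motif GCCAT and the GAGA factor motif GAGAG, on either strand.
mthl8 site: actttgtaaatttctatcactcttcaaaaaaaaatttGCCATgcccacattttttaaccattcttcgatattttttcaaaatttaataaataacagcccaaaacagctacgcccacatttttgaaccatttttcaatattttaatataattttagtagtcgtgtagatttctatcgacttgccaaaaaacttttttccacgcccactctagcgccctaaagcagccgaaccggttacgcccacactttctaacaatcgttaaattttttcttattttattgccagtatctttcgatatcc
CG18599 site: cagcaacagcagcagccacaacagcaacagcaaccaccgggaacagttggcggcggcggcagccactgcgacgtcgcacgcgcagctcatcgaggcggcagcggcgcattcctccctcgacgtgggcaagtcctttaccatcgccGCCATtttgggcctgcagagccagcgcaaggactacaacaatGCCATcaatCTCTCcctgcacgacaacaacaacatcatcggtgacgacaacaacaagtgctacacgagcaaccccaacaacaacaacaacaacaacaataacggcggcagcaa
CG4597 site: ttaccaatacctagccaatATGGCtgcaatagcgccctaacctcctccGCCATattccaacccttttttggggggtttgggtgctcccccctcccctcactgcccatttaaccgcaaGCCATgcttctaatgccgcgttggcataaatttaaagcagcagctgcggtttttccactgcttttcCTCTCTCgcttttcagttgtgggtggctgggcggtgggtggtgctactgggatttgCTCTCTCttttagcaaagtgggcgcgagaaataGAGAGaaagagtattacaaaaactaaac
Rca1 site: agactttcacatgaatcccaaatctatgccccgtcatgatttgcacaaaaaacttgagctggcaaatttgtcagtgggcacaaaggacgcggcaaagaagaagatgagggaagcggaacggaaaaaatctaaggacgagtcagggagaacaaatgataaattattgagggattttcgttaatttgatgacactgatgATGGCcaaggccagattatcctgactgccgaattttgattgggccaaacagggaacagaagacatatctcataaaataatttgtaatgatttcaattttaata
ro site: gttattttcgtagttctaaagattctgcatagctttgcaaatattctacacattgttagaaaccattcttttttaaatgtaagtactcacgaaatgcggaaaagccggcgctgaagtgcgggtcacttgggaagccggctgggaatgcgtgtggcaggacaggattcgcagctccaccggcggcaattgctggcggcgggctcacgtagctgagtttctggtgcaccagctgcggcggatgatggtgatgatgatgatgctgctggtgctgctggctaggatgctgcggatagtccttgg
AhcyL2 site: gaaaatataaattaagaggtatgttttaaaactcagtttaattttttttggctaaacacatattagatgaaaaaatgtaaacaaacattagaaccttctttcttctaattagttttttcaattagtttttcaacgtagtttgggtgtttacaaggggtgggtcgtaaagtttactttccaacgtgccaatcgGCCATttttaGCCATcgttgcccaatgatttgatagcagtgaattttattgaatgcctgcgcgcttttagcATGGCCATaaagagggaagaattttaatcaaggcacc
a6 site: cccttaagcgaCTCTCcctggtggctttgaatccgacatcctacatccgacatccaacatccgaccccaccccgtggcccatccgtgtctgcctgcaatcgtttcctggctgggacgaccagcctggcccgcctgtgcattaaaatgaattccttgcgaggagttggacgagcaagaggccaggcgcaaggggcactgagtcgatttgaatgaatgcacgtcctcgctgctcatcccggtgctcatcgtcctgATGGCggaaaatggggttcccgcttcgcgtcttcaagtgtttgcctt
Map205 site: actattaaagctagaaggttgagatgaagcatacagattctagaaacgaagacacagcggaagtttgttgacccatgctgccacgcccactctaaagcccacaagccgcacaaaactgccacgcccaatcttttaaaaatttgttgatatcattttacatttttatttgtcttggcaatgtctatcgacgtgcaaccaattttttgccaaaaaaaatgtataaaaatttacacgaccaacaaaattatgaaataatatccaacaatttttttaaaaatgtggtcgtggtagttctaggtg
A Pho motif was found in 6 of the 8 windows and a GAGA factor motif in 3, and 2 windows, at *ro* and *Map205*, held neither. Among 361174 windows of this length from these arms, which do not cover all of them, 47.9% held the Pho motif and 30.0% the GAGA factor motif. The most Pho motifs, 4, were in the window at *AhcyL2*, and the most GAGA factor motifs, 5, in the window at *CG4597*. Annotated transposable elements cover 60.6% of the *mthl8* site and 54.2% of the *Map205* site and none of the other 6. A match to such short letters is a description and not a binding site.

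The word isolated held for only some of the sites. Of the 217, 117 (53.9%) lay in a 10 kb bin whose neighbour was broad, and 58 (26.7%) touched a broad bin. The other 100 (46.1%) had no broad neighbour, and 65 (30.0%) lay over 100 kb from any broad bin. A window of 10 kb centred on the site had a mean under 1.5 at 115 sites and of 1.5 or more at 102. A first or last 1 kb of the fixed 10 kb bin was part of 86 sites (39.6%). The 117 are called here sites next to broad bins and the 100 sites apart. The 10 kb centred on a site had a median of 1.90 at sites next to broad bins and of 1.12 at sites apart. The median distance of the sites apart from a broad bin was 190500 bp, and the longest of all was 2485000 bp.

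**Figure D1:**
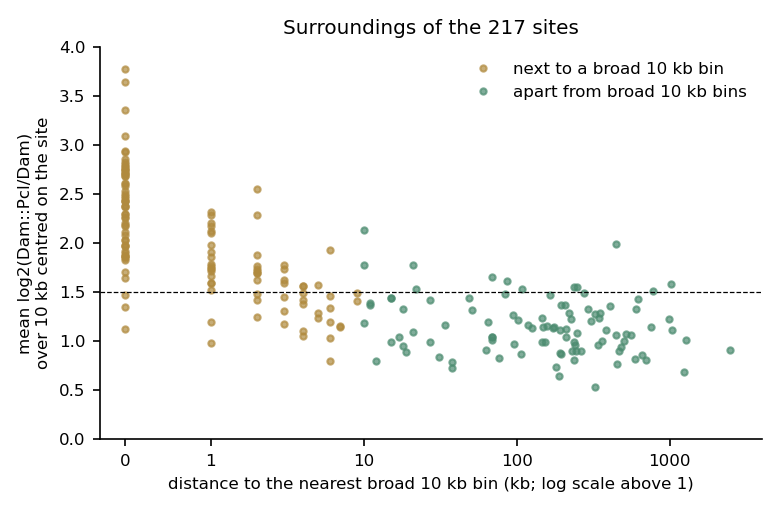
Each point is one of the 217 sites, with the distance to the nearest broad 10 kb bin in kb on the x axis (0, then a log scale above 1) and the mean log2(Dam::Pcl/Dam) over 10 kb centred on the site on the y axis, as the mean of the 6 samples. The dashed line is 1.5, and 102 sites lie on or above it, most of them within 10 kb of a broad bin.

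Around the sites the signal fell steeply. In the mean profile over sites, log2(*Dam::Pcl/Dam*) was 3.69 at the centre, 2.09 and 2.17 at 1 kb on either side, 1.27 and 1.38 at 2 kb, and 0.90 and 0.95 at 10 kb. Around the centres of the merged regions of the same level inside broad bins, it was 4.20 at the centre and still 2.04 and 1.96 at 10 kb. The rule chose the sites for low surroundings, so this contrast is its own product. The rule limits the width of a peak too, so widths are given as a description. The half-height of a site was taken on the log2 scale, so these are not widths at that height of the ratio itself. The stretch at or above it had a median of 2010 bp, from 569 to 11163 bp, over a median of 4 GATC fragments. The widest, 11163 bp, was the site at *CG18599*, which touches a broad bin. Sites apart had a median width of 1726 bp and sites next to broad bins of 2146 bp.

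**Figure D2:**
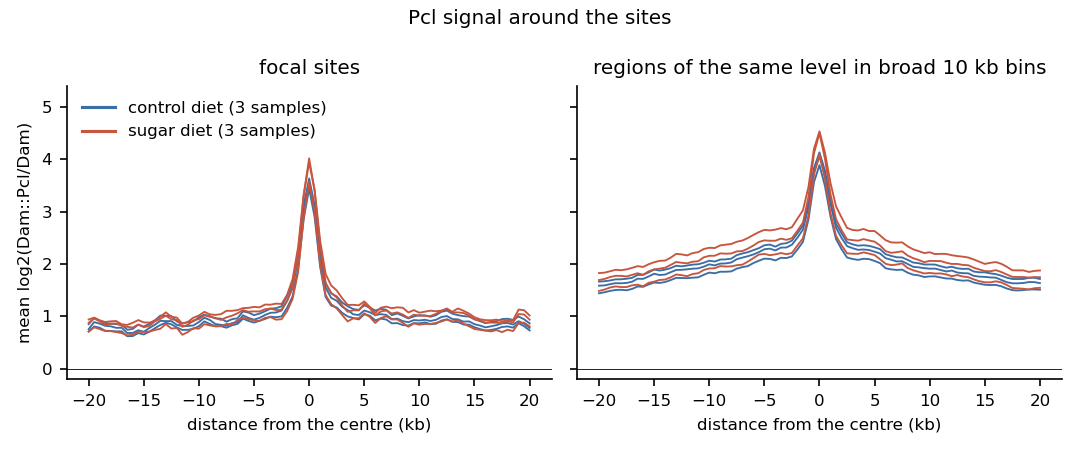
Mean log2(Dam::Pcl/Dam) in steps of 500 bp against distance from the centre in kb, for the focal sites (left) and for merged regions of the same level inside broad 10 kb bins (right), with a line for each of the 3 control diet and 3 sugar diet samples. At 10 kb the focal sites have means of 0.90 and 0.95, and the regions in broad bins of 2.04 and 1.96.

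The mean level of a site over the 6 samples ran from 2.65 to 5.52, with a median of 3.37. The median over sites was 3.35, 3.27 and 3.13 in control diet replicates 1, 2 and 3, and 3.18, 3.67 and 3.65 in sugar diet replicates 1, 2 and 3. Sugar diet replicate 1 was thus below the other sugar diet replicates, and it was the lowest of the 6 samples at 82 sites. Sugar diet replicate 2 was the highest at 99 sites and replicate 3 at 68. The SD between replicates had a median of 0.16 for the control diet and 0.30 for the sugar diet. Across the 217 sites, Pearson's r between samples was 0.87 to 0.98 within the control diet, 0.85 to 0.92 within the sugar diet and 0.37 to 0.70 between diets, as a description over points that share the samples and the cut at 2.5.

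At the edges of the rule, the 5 sites nearest to the level had their lowest sample between 2.503 and 2.507, and the 5 bins that just missed it between 2.491 and 2.497. The 5 sites nearest to the other limit had a 10 kb mean between 1.491 and 1.496, and the 5 bins just past it between 1.502 and 1.520. Most sites, 169, were 1 bin long, 43 were 2 bins, 4 were 3 bins and 1 was 4 bins. A site was covered by a median of 3 GATC fragments, and 10 sites lay in a single fragment, so for these the level is 1 value per sample. Every 75-base word was found once in the genome at 208 sites, and under 90% were at 4 sites, where reads cannot be placed with certainty. Transposable elements filled more than 50% of 4 sites.

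In the sequence of the chromosomes the sites were spread out. Arm 3R held 57, X 48, 2L 40, 3L 39, 2R 29 and the fourth chromosome 4. Per Mb this was between 1.15 on 2R and 2.97 on the fourth chromosome, which rests on 4 sites. The next site was over 100 kb away for 134 sites and within 5 kb for 10. The 217 sites had 212 different nearest coding genes, and *Cph*, *Hmx*, *TTLL4B*, *fz4* and *rux* had 2 sites each.

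Of the 217 sites, 90 (41.5%) overlapped no annotated gene. The midpoint was intergenic at 117 sites, in an intron at 68, in a coding exon at 12, in a 3' UTR at 7, in a 5' UTR at 6 and in an exon of a noncoding RNA at 7. Counted by 1 kb bins, 53.1% of site bins were intergenic, beside 50.3% of the bins of the same level in broad bins and 30.6% of all bins. Coding exons held 5.90%, 4.15% and 17.0%. A transcription start site lay within 500 bp of 51 sites (23.5%), and by bins the share was 22.1%, 19.0% and 19.9%. The median distance of a bin's midpoint to the nearest start of a coding gene was 4016 bp for site bins, 5889 bp for bins of the same level in broad bins and 5495 bp for all bins.

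**Figure D3:**
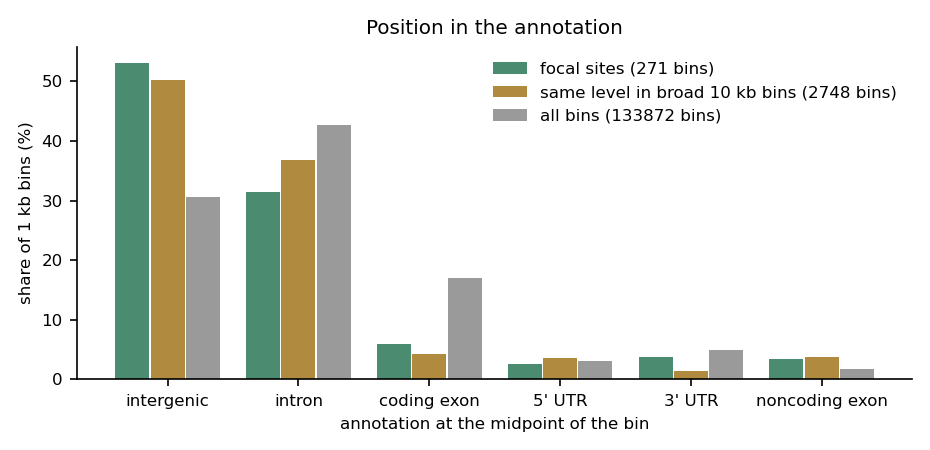
Share of 1 kb bins in percent by the annotation at their midpoint, for the 271 bins of the focal sites, the 2748 bins of the same level in broad 10 kb bins and all 133872 bins. Intergenic sequence takes 53.1%, 50.3% and 30.6% and coding exons 5.90%, 4.15% and 17.0%.

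The motifs of factors known from Polycomb response elements were counted in the bins. The motif of Pho, the DNA-binding protein of the PhoRC complex, was in 90.4% of site bins, 89.9% of the latter and 86.6% of all bins. The motif of the GAGA factor was in 69.7%, 73.7% and 68.7%, and 3 or more copies of it in 19.6%, 26.7% and 19.3%, so that by this count site bins were nearer to all bins than to the bins of the same level in broad bins. The Combgap motif GTGTGT was in 54.2%, 55.5% and 45.8%, and the Sp1 family motif GGGCGG in 37.3%, 38.3% and 29.2%. The Zeste motif TGAGTG was in 40.2%, 44.0% and 38.5%, and the Dsp1 motif GAAAA in 99.6%, 98.7% and 97.3%. The median GC content was 42.7%, 42.5% and 41.8%. Motifs were counted on both strands and each on its own, so that they may overlap.

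Genes near the sites were sorted by lists of 10 kinds of gene. Homeobox genes, a class that includes many known Polycomb targets, were nearest to 7.38% of site bins, 25% of the bins of the same level in broad bins and 1.93% of all bins. Other developmental transcription factor genes were nearest to 5.17%, 16.6% and 2.09%. Here a site is said to be at a gene that overlaps it or is the nearest, whatever the distance. By that count, 43 of the 217 sites were at a gene of these 2 lists, and 64 at a gene of any list. Among the others, 7 sites were at axon guidance and cell adhesion genes and 5 at signal ligand and receptor genes. Another 3 were at ion channel or neurotransmitter receptor genes, 2 at chemoreceptor genes and 1 at a neuropeptide gene. A Polycomb or trithorax group gene had 1 and ribosomal protein genes 0. Genes of tRNAs or other small RNAs were nearest to 2 sites, which overlapped none of them and lay 14129 bp and 9508 bp past their starts. All 7 sites at adhesion genes were sites apart, beside 3 of the 21 at homeobox genes and 5 of the 22 at other transcription factor genes.

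The highest site lay in the 3' UTR of *gl*, the zinc finger gene of photoreceptors, at 18368001 to 18370000 on 3R, 2363 bp past the start of the nucleoporin gene *Nup43*. Its level was 5.89, 5.70 and 5.17 in control diet replicates 1, 2 and 3 and 4.77, 5.44 and 6.13 in sugar diet replicates 1, 2 and 3. The diets overlapped. Next came an intergenic site at 14840001 to 14842000 on 2R near the phosphate transporter gene *NaPi-T*, with 5.43, 5.37 and 5.05 on the control diet and 4.58, 5.32 and 5.22 on the sugar diet, which overlapped too. A site at 23619001 to 23620000 on 2R, upstream of the aquaporin-family gene *Eglp2*, had 4.57, 4.41 and 4.48 on the control diet and 5.27, 5.34 and 5.75 on the sugar diet, with every sugar diet replicate above. Of the 8 highest sites, those at *mthl8* and in *Hr38* were sites apart and the other 6 lay next to broad bins.

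The site in an intron of *Hr38*, a nuclear receptor gene used in flies as a marker of neuronal activity, was at 20689001 to 20691000 on 2L, 69000 bp from a broad bin. Its level was 4.47, 4.26 and 4.39 on the control diet and 5.24, 5.47 and 5.14 on the sugar diet. The site at 1670001 to 1671000 on 2L, in an intron of *chinmo*, a gene of temporal identity in neurons, had 4.18, 3.97 and 4.52 on the control diet and 5.43, 5.07 and 5.30 on the sugar diet. In both, the lowest sugar diet value was above the highest control diet value.

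The comparison of the diets asks whether *Pcl* binding at the sites differed with dietary sugar. Sugar diet minus control diet was fitted with limma over 133818 features, the 217 sites and all other 1 kb bins, and p-values were adjusted by Benjamini-Hochberg over all of them. At an adjusted p under 0.05, 60 sites (27.6%) were higher and 5 (2.30%) lower on the sugar diet, and 152 were not called. Among all features 16.2% were called higher and 22.6% lower. Among the 2748 bins of the same level in broad bins, 30.5% were higher and 4.37% lower. The 3 sugar diet values lay above the 3 control diet values at 82 sites (37.8%) and below them at 12 (5.53%), while among all features these shares were 23.8% and 31.5%. The median difference was 0.25 over sites, 0.31 over the bins of the same level in broad bins and -0.01 over all features.

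The split between higher and lower calls moved with the scaling of the samples. After quantile normalization, 46 of the 217 sites were higher and 32 lower, with a median difference of 0.01. Among all features 20.9% were then higher and 21.3% lower. With samples set to a common median and spread (MAD scaling), 23 sites were higher and 31 lower, beside 21.4% and 19.9% of all features. The larger share of higher calls at sites than among all features was thus not kept under MAD scaling. Sites needed 2.5 in all samples of both diets, which limits how far one can differ. Of the 100 sites apart, 29 were higher and 1 lower, and of the 117 next to broad bins, 31 and 4.

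The largest rise was at an intergenic site at 1697001 to 1698000 on X, upstream of *a6* (its midpoint at -1612 bp from the start) and inside 1 GATC fragment, so the 6 values are of 1 fragment. Its level was 3.44, 3.20 and 3.48 on the control diet and 5.08, 5.35 and 5.18 on the sugar diet, a difference of 1.83 ± 0.11 (SE; limma, adjusted p = 0.0026). A coding exon of the ETS factor gene *Ets65A*, at 6122001 to 6123000 on 3L, had 2.70, 2.54 and 2.95 on the control diet and 4.56, 4.64 and 4.20 on the sugar diet, a difference of 1.74 ± 0.16 (limma, adjusted p = 0.0040). At both sites the diets stood wide apart, and both lay 2000 bp from a broad bin and were rich in GC (55.1% and 58.5%). With the samples corrected for GC content the differences were 1.15 and 1.00, still called, and *a6* was no longer the largest rise, since *bs*, described next, had 1.18.

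Large rises were also measured at *Ets96B* and *bs*, both genes of transcription factors. At 24788001 to 24790000 on 3R, in a coding exon of the ETS factor gene *Ets96B*, the level was 4.003, 3.87 and 3.89 on the control diet and 5.27, 5.19 and 5.82 on the sugar diet, a difference of 1.502 ± 0.19 (limma, adjusted p = 0.0061), which was 0.86 after the GC correction. At 24342001 to 24343000 on 2R, upstream of a start of *bs* (midpoint at -360 bp), which encodes the fly serum response factor, it was 2.89, 2.71 and 3.31 on the control diet and 4.44, 4.07 and 5.24 on the sugar diet, a difference of 1.61 ± 0.36 (limma, adjusted p = 0.024). The *bs* site was one of the sites apart, and its call was lost without control diet replicate 1 (1.57), control diet replicate 2 (1.48) or sugar diet replicate 1 (1.68).

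The other sites with a large rise were in *CG18599*, a homeobox gene that overlaps *Vps39*, and near *Fancm*, which encodes a DNA repair helicase. The *CG18599* site at 18270001 to 18272000 on 3R had 4.38, 4.23 and 4.23 on the control diet and 5.46, 5.63 and 5.83 on the sugar diet, a difference of 1.36 ± 0.11 (limma, adjusted p = 0.0032), which was 0.81 after the GC correction. The *Fancm* site at 21489001 to 21490000 on 3R had 2.88, 2.95 and 3.13 on the control diet and 4.11, 4.26 and 4.50 on the sugar diet, a difference of 1.30 ± 0.12 (limma, adjusted p = 0.0041). The sites at *CG18599*, *Fancm* and *Ets96B* touched a broad bin. Among the highest sites, those at *chinmo* (1.05 ± 0.17), *Eglp2* (0.97 ± 0.14) and *Hr38* (0.91 ± 0.11) passed the threshold as well, with limma's adjusted p between 0.0057 and 0.012. After MAD scaling none of these 3 was called (limma, adjusted p = 0.25, 0.17 and 0.26), the *chinmo* call was lost after quantile normalization too (0.82), and the *Hr38* call after the GC correction (0.32).

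Only 5 sites were lower on the sugar diet, and 4 of them lay next to broad bins. The largest fall was at 32069001 to 32070000 on 3R, upstream of *Map205* (midpoint at -1060 bp), which encodes a microtubule-associated protein. Its level was 6.12, 5.96 and 5.11 on the control diet and 3.35, 4.17 and 3.72 on the sugar diet, a difference of -1.98 ± 0.36 (limma, adjusted p = 0.014), and the call was lost without control diet replicate 2 (-1.87). Annotated transposable elements cover 54.2% of this site, and their part in the difference was not tested. The site at 16983001 to 16984000 on 3R, upstream of *AhcyL2*, an adenosylhomocysteinase-like gene, had 5.34, 5.12 and 4.81 on the control diet and 3.18, 3.75 and 3.83 on the sugar diet, a difference of -1.503 ± 0.23 (limma, adjusted p = 0.010). Both were well separated between the diets.

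The remaining falls were nearer to the threshold. At the start of *sv*, the fly Pax2 gene, on the fourth chromosome (1088001 to 1090000), the level was 4.71, 4.61 and 4.14 on the control diet and 2.95, 3.67 and 3.80 on the sugar diet, a difference of -1.01 ± 0.29 (limma, adjusted p = 0.048). The *sv* call was lost without any one of the 6 samples (-0.75 to -1.19) and after the GC correction (-0.53). At the start of *bcd*, the gene of the anterior morphogen, on 3R (6759001 to 6760000), the level was 4.09, 3.97 and 3.69 on the control diet and 2.62, 3.20 and 3.25 on the sugar diet, a difference of -0.90 ± 0.21 (limma, adjusted p = 0.030). That call was lost without control diet replicate 1 (-0.81), control diet replicate 2 (-0.87) or sugar diet replicate 2 (-0.99), and 87.2% of the site's 75-base words were found once in the genome.

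The 1 site apart that was lower lay at 20001 to 21000 on 3L, upstream of *mthl8* (midpoint at -1927 bp), a gene of the Methuselah-like receptor family, and 60.6% of it is annotated transposable element. Its level was 5.59, 5.54 and 5.10 on the control diet and 4.18, 4.45 and 4.94 on the sugar diet, a difference of -0.89 ± 0.25 (limma, adjusted p = 0.044). The site had the lowest GC content of the 217 (33.4%), and with the samples corrected for GC content its difference was 0.04 and not called. The call was also lost without control diet replicate 1 (-0.80), 2 (-0.82) or 3 (-1.04) or sugar diet replicate 1 (-0.72) or 2 (-0.85).

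**Figure D4:**
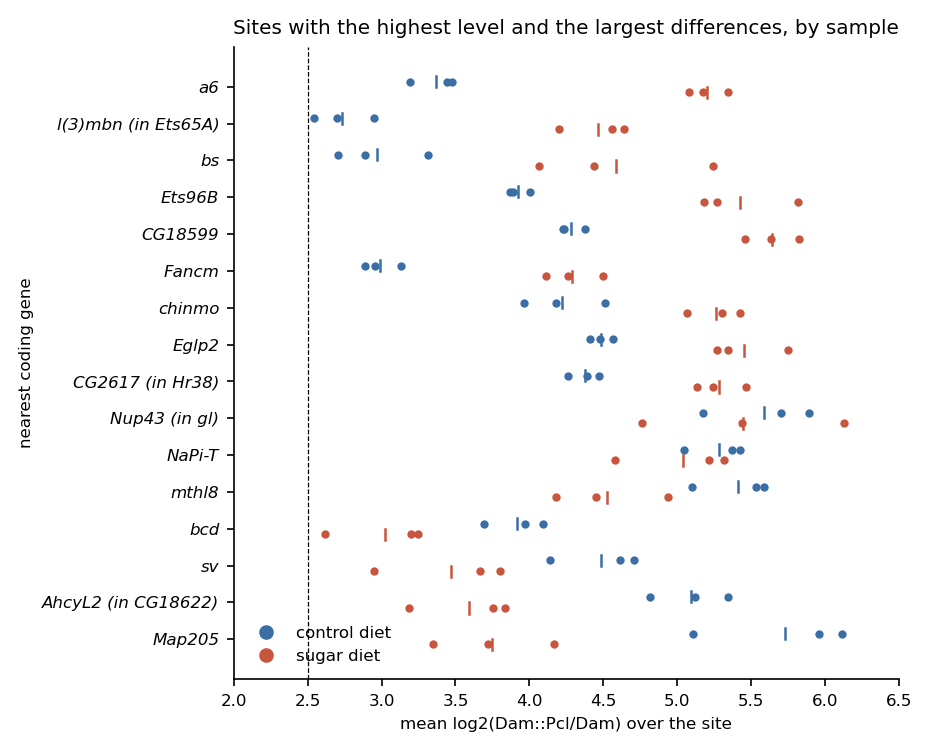
Mean log2(Dam::Pcl/Dam) over each site (x axis) for the 8 sites with the highest level and the sites with the largest rise and fall, by nearest coding gene (y axis, with the gene it lies in where that is another), with 3 control diet and 3 sugar diet samples as points and a tick at each diet's mean. The dashed line is the level of 2.5 that every sample had to reach, and only the sites nearest Nup43 and NaPi-T have diets that overlap.

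The counts that follow by kind of gene are small, were not tested, and stand beside the 27.6% of all sites and 16.2% of all features that were higher. Among sites at homeobox genes, 5 of 21 were higher and 1, *bcd*, was lower, with a median difference of 0.25. At *ro*, an eye homeobox gene, the site at 26879001 to 26882000 on 3R lay 448000 bp from a broad bin and had 3.86, 3.77 and 3.90 on the control diet and 4.66, 4.97 and 4.89 on the sugar diet, a difference of 1.00 ± 0.09 (limma, adjusted p = 0.0040). It was 0.54 and still called after the GC correction, and the call was lost after MAD scaling (limma, adjusted p = 0.11). A site downstream of the start of *Hmx* (17570001 to 17571000 on 3R) had 3.91, 3.80 and 3.82 on the control diet and 4.25, 4.57 and 4.76 on the sugar diet, a difference of 0.68 ± 0.14 (limma, adjusted p = 0.020). It touched a broad bin, and the mean over the 10 kb centred on it, 3.78, was the highest of the 217 sites. The *Hmx* call was lost without control diet replicate 1 (0.71), 2 (0.66) or 3 (0.67) or sugar diet replicate 2 (0.66) and after MAD scaling (limma, adjusted p = 0.38), and quantile normalization gave 0.44. Within *Six4*, a gene of muscle and gonad development, the site at 20789001 on 3L had 4.68, 4.63 and 4.04 on the control diet and 3.60, 3.95 and 4.71 on the sugar diet, and the diets overlapped.

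Among sites at other developmental transcription factor genes, 6 of 22 were higher and 0 lower, with a median difference of 0.39. Besides *Hr38* and *chinmo*, the site in the 5' UTR of *Doc1*, a T-box gene (9041001 to 9042000 on 3L), was higher, with 3.54, 3.43 and 3.73 on the control diet and 4.82, 4.43 and 4.88 on the sugar diet, a difference of 1.14 ± 0.15 (limma, adjusted p = 0.0069), not called after MAD scaling (adjusted p = 0.068). It was a site apart. In an intron of *Sox102F*, on the fourth chromosome, the level was 4.08, 3.97 and 3.63 on the control diet and 3.71, 4.32 and 4.44 on the sugar diet, and the diets overlapped.

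Of the 7 sites at axon guidance and cell adhesion genes, 4 were higher and 0 lower, with a median difference of 0.60, beside 27.6% higher among all sites and 16.2% among all features. Genes of this list were nearest to 0.738% of site bins and 2.77% of all bins. A coding exon of *Dscam3*, an immunoglobulin-family adhesion gene (17480001 to 17481000 on 3R), had 3.30, 3.24 and 3.22 on the control diet and 4.30, 4.28 and 4.52 on the sugar diet, a difference of 1.11 ± 0.07 (limma, adjusted p = 0.0028). An intron of *Con*, which encodes the adhesion protein Connectin (4993001 to 4994000 on 3L), had 3.62, 3.38 and 3.503 on the control diet and 4.39, 4.53 and 4.79 on the sugar diet, a difference of 1.07 ± 0.13 (limma, adjusted p = 0.0058). Both calls held under every alternative computed for single sites, unlike that at *DIP-delta*, a gene of synaptic partner matching.

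The *DIP-delta* site had 3.39, 3.23 and 3.34 on the control diet and 3.74, 4.26 and 3.76 on the sugar diet, a difference of 0.60 ± 0.16 (limma, adjusted p = 0.041). Its call was lost without control diet replicate 1 (0.63), 2 (0.55) or 3 (0.61), without sugar diet replicate 1 (0.69) or 3 (0.68), after the GC correction (0.43), and after quantile normalization (0.35) and MAD scaling (limma, adjusted p = 0.47). An intergenic site had *18w*, a Toll-family gene, as its nearest coding gene (midpoint at -12010 bp). Its level was 4.70, 4.50 and 4.46 on the control diet and 3.20, 4.40 and 4.33 on the sugar diet. Every sugar diet replicate was below, but sugar diet replicate 1 stood far from the others, and the difference of -0.58 ± 0.36 was not called (limma, adjusted p = 0.26), although it was after quantile normalization (-0.81).

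Of the 5 sites at signal ligand and receptor genes, 2 were higher and 0 lower. Upstream of the ligand gene *Wnt10* (7358001 to 7360000 on 2L), the level was 3.83, 3.71 and 3.24 on the control diet and 4.16, 4.23 and 4.27 on the sugar diet, a difference of 0.63 ± 0.17 (limma, adjusted p = 0.040), lost without control diet replicate 2 (0.69), without sugar diet replicate 1 (0.66), 2 (0.62) or 3 (0.60) after the GC correction (0.28), and after quantile normalization (0.39) and MAD scaling (adjusted p = 0.075). Nearby in the same cluster of ligand genes, an intron of *Wnt6* had 3.43, 3.24 and 3.79 on the control diet and 3.13, 3.58 and 2.83 on the sugar diet. The diets overlapped there, as they did in *sog*, which encodes a BMP antagonist, and in *Egfr*.

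Ion channel and neurotransmitter receptor genes were nearest to 0.369% of site bins and 1.16% of all bins, and neuropeptide and peptide receptor genes to 0.738% and 0.949%. In introns of the potassium channel gene *eag* and the acetylcholine receptor gene *nAChRalpha5*, and in *Irk1*, an inward rectifier gene, the levels were between 2.68 and 3.63 over the 6 samples, and 0 of 3 sites were called. Without sugar diet replicate 1 the *eag* site was called higher (0.42), and after quantile normalization or MAD scaling the other 2 were called lower. The site at 24340001 to 24342000 on 3R, at the start of the neuropeptide gene *Ms* (Myosuppressin; midpoint at -550 bp), had 3.23, 3.16 and 3.11 on the control diet and 3.43, 4.06 and 3.75 on the sugar diet. Its difference of 0.58 ± 0.17 was at the threshold (limma, adjusted p = 0.0499) and was lost without control diet replicate 1 (0.61), 2 (0.57) or 3 (0.55) and without sugar diet replicate 2 (0.42) or 3 (0.58). Quantile normalization (0.34), MAD scaling (limma, adjusted p = 0.40) and eBayes with trend and robust (limma, adjusted p = 0.052) ended the call too.

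The sites nearest to the chemoreceptor genes *Ir7d* and *Or67d* were not called, with differences of -0.18 ± 0.26 and 0.21 ± 0.12. The *Or67d* site was intergenic, with its midpoint 8297 bp past the start of that gene. The site in the 5' UTR of *jing*, the cofactor gene of PRC2.2 and the only Polycomb group gene with a site, had 2.88, 2.70 and 2.98 on the control diet and 2.61, 3.25 and 3.14 on the sugar diet, and the diets overlapped there too. The 2 sites nearest to, but not overlapping, genes of small RNAs lay in introns of *CG34355* and of *sr*. They were not called, with differences of -0.10 ± 0.15 and -0.28 ± 0.11. The *sr* site was called lower without control diet replicate 1 (-0.39) and after the GC correction (-0.38).

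The difference between the diets moved with base composition. Across the 217 sites, Pearson's r between GC content and the difference was 0.54 and Spearman's rho 0.45, as a description over sites that share the 6 samples, and 10% more GC went with 0.84 more on the log2 scale. Over all features r was 0.58. Of the 74 sites with 33.4% to 41.5% GC, 10 were higher and 3 lower. Of the 72 with 43.7% to 58.5% GC, 33 were higher and 0 lower. The shares higher and lower were 27.6% and 2.30% over all sites and 16.2% and 22.6% over all features. After a correction of each sample for GC content, 56 sites were higher and 6 lower, beside 16.4% and 22.6% of all features in that fit. Of the 65 sites called without the correction, only 50 were called again in the same direction. The part of GC content in single calls was tested only in this way.

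**Figure D5:**
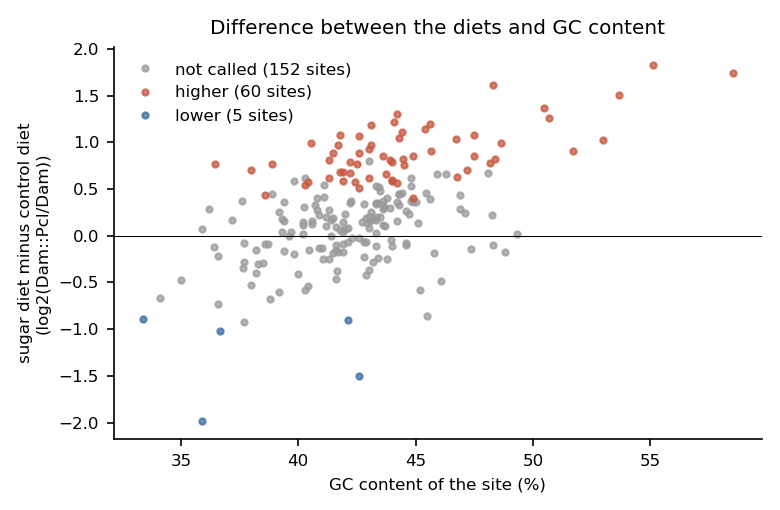
Sugar diet minus control diet in log2(Dam::Pcl/Dam) (y axis) against the GC content of each of the 217 sites in percent (x axis), coloured by limma's call at an adjusted p under 0.05 (60 higher, 5 lower, 152 not called). Higher sites are more frequent towards high GC content, and Pearson's r is 0.54.

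Called sites were found in most kinds of location. Of the 117 intergenic sites, 32 were higher and 4 lower, of the 68 intronic sites, 20 and 0, and of the 12 in coding exons, 5 and 0. Of the 7 in a 3' UTR, 0 were called. By arm, 14 of 40 sites were higher on 2L, 5 of 29 on 2R, 15 of 39 on 3L, 16 of 57 on 3R, 0 of 4 on the fourth chromosome and 10 of 48 on X. Over all sites 27.6% were higher and 2.30% lower, and over all features 16.2% and 22.6%. No test was made between these groups.

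For the series as a whole, the files gave ratios for 373710 GATC fragments on these arms, between 10.6% and 11.1% of them exactly 0, and no read counts, so the depth is unknown. The share of bins at 2.5 or more was 3.70%, 3.45% and 2.87% in control diet replicates 1, 2 and 3. In sugar diet replicates 1, 2 and 3 it was 3.24%, 4.10% and 4.60%. Among fragments at 0 in one sample, 0% were negative in a sample of the same diet but 8.99% to 15.7% in a sample of the other diet. Whether replicates of a diet share a Dam-only profile was not tested further, and the diet difference cannot be told apart from a difference between Dam-only profiles. The taste receptor loci had low ratios as means over the samples. Among the sweet receptor genes measured they ran from -0.37 at *Gr64a* to 0.53 at *Gr61a*, with 0.21 at *Gr5a*. Among the bitter receptor genes measured they ran from -0.52 at *Gr32a* to 0.71 at *Gr33a*, with -0.35 at *Gr66a*. The 2 kinds overlapped, and such ratios cannot show which cells gave the DNA.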

How the data were processed

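Per the labels and the methods, the authors discarded reads of low quality, aligned the others to the dm6 (BDGP6) genome with Bowtie2, extended them and, with damidseq_pipeline, made log2 values of *Dam::Pcl* over Dam-only signal, which they deposited per GATC fragment. Its normalization option and the Dam-only sample behind each ratio are not given in the sources used here. Every fragment end was at a GATC of the Release 6 genome. Length-weighted means came from Python 3.11.15 (numpy 2.4.6, pandas 2.3.3), and genes came from the Ensembl BDGP6.54 annotation. DiffBind, which the methods name for comparing samples, needs reads and could not be run, so the diets were compared with limma (version 3.58.1, R 4.3.3; lmFit, then eBayes, on the sugar diet less the control diet). The self-test added a log2 difference of 1 to 200 of 133818 simulated features, and limma recovered 44 (22%) with 4 false calls, so at that share of changed features most differences of this size were missed. In the data a far larger share was called, 16.2% of features higher and 22.6% lower, so the 22% does not carry over to the sites. With only 3 samples per diet, precision is limited, and nothing says that p-values cover more than the spread between these samples.

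The sites, gene lists and tests were chosen with earlier results of these data known. Named sites are the 8 highest, the 6 largest rises and up to 6 largest falls among called sites with separated diets, up to 4 highest for each gene list, and for sequences the highest with only unique 75-base words, outside annotated untranslated regions and off arm 2R, which was not considered. The site nearest a gene is named by its closest start site or the gene it lies in. Alternatives were other scalings, a GC correction, a replicate block, other thresholds, filters and rules, and each sample left out. The Dam-only samples were not analysed here.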

Additional observations from a re-analysis of the deposited data

How the results depend on the processing

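Counts of called sites, higher and lower on the sugar diet, moved with the settings, although no site called in the report was called in the opposite direction under any of them. A threshold of 0.01 gave 25 and 0, and one of 0.1 gave 73 and 12. The shares over all features at these thresholds are not given here. Quantile normalization gave 46 and 32, beside 20.9% and 21.3% of all features. Scaling by median and MAD gave 23 and 31, beside 21.4% and 19.9% of all features. Its median difference over sites was -0.20, reversed from 0.25. Of the 65 sites called in the report, 47 kept their call after quantile normalization and 28 after MAD scaling. limma's treat with a fold of 1.5 gave 7 and 0, and leaving out fragments at 0 in all samples gave 64 and 8. The replicate block gave 27 and 0, beside 9.42% and 13.4% of all features. With the GC correction added it gave 35 and 2, beside 11.4% and 15.3%. The block ended the calls at *mthl8*, *Map205*, *AhcyL2*, *sv*, *bcd*, *Hmx*, *Wnt10*, *Ms* and *DIP-delta*, while with the GC correction added those at *Map205*, *AhcyL2* and *Hmx* held and those at *CG18599*, *Ets96B*, *Hr38* and *ro* ended. Deviations of same-numbered samples correlated at -0.26, 0.18 and -0.14, and those of differently numbered samples between -0.26 and 0.40. With only 3 samples per diet, these values cannot settle whether same-numbered samples were prepared together. Leaving out 1 replicate gave 31 to 75 higher and 1 to 9 lower sites, with 36 and 3 without control diet replicate 1, 31 and 1 without control diet replicate 2, 75 and 3 without sugar diet replicate 1, and 43 and 9 without sugar diet replicate 2. Among all features these fits called 8.76% to 13.4% higher and 14.4% to 19.5% lower. The cause of the shifts in counts was not tested. The difference at *mthl8* reversed to 0.038 under the GC correction, with and without the block. Of 529 values of 38 named sites under the alternatives, 424 kept sign and call, 72 lost the call, 15 gained one, and 18 at 10 sites changed sign, 2 of them at *mthl8* and 16 where neither value was called. Among those that gained one under quantile normalization were the sites at *NaPi-T* (-0.47), *sog* (-0.59), *nAChRalpha5* (-0.49), *Irk1* (-0.40), *18w* (-0.81) and in *CG34355* (-0.34), all lower.

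The number of sites depends on the rule: 433 at a level of 2 or more, 96 at 3 or more, 75 with a 10 kb mean under 1, 430 with one under 2, and 133 with a 10 kb window centred on the bin, of which 116 of the 217 were kept. A shifted grid gave 199 sites but kept only 64 of the 217, an unweighted mean over fragments gave 268 and kept 136, and rules that left out 1 replicate gave 220 to 250. Depth is unknown, and single-fragment sites have no inner check.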
